A study of Rattus norvegicus with 9 samples.

Results

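The 10 genes described here encode matrix metalloproteinases (Mmp2, Mmp3, Mmp9, Mmp14, Mmp15 and Mmp16) and the tissue inhibitors of metalloproteinases (Timp1, Timp2, Timp3 and Timp4), and they were taken by gene symbol from the 34092 genes of the expression table. Mmp2 and Timp1 were chosen for their levels in these libraries under PCT, so their own values are given as a description with no test. The other 8 were added as relatives by name. RNA-sequence was performed on primary hippocampal neurons of wild-type rats, prepared from hippocampi of embryonic day 17 and stimulated at 7 days in vitro. The 3 groups were vehicle (Control, 3 libraries), 1 nM human NPCT (aminoprocalcitonin, the amino-terminal peptide of procalcitonin, 3 libraries) and 1 nM human PCT (procalcitonin, the parent peptide, 3 libraries), each peptide given for 24 h. The maintenance medium as described held no agent against dividing cells, and glia grow in such cultures beside the neurons. Levels are FPKM, fragments scaled by gene length in kilobases and by a factor for each library. They correct for gene length and so allow levels of different genes to be compared. The fragments recovered for all genes summed to between 13573056 and 17211642 a library. The methods describe RNA from pooled samples of biological triplicates while the labels number 3 libraries a group, so the spread between libraries may be technical.

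Metalloproteinases are zinc enzymes that cut proteins of the extracellular matrix and of the cell surface. They are made as inactive proenzymes, and the TIMPs bind their active sites and block them. In the brain they act on the matrix around synapses and vessels, and neurons and glia release both enzymes and inhibitors. Mmp2 and Mmp9 encode the gelatinases, Mmp3 encodes stromelysin, and Mmp14, Mmp15 and Mmp16 encode enzymes held in the plasma membrane. The membrane enzyme of Mmp14 activates the Mmp2 proenzyme, and the inhibitor of Timp2 takes part in that step as a bridge between the proteins.

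Some libraries stood apart from their group. PCT replicate 3 differed more from the other PCT libraries than those did from each other, with chi-square per degree of freedom of fragments over genes of 18.9 and 21.6 against 6.38. NPCT replicate 3 likewise gave 10.6 and 10.8 against 4.38. Without PCT replicate 3, PCT against Control was -1.96 for Mmp2 and 1.09 for Timp1 on the log2 scale, and with all libraries it was -1.88 and 1.14. No pair of libraries within a group agreed within sampling noise, the lowest value being 4.16.

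The plot of FPKM by library shows the 10 genes side by side. In Control libraries Timp2 was far above every other gene of the family, at 410.4 ± 5.04 FPKM (SD, n = 3). Mmp14 (68.1 ± 3.96), Timp1 (64.2 ± 6.60) and Timp3 (57.6 ± 0.862) followed, and neighbours in that order did not separate, since the ranges of Mmp14 and Timp1 overlapped and so did those of Timp1 and Timp3. Mmp15 (36.6 ± 0.862), Mmp16 (26.7 ± 0.959), Mmp2 (21.0 ± 1.79) and Timp4 (9.52 ± 2.38) came next, each with libraries apart from its neighbours. Mmp9 (0.480 ± 0.243) and Mmp3 (0.0651 ± 0.0214) were at the lower end. In PCT libraries Timp1 stood second after Timp2, at 142 ± 17.2 FPKM, and Mmp2 stood below Timp4, at 5.64 ± 0.704 against 6.65 ± 0.244 FPKM. In NPCT libraries Timp3 (57.2 ± 1.86 FPKM) lay above Timp1 (50.8 ± 0.282 FPKM) in all libraries, and Mmp16 (22.7 ± 3.86) and Mmp2 (20.5 ± 2.98) overlapped.

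**Figure D1:**
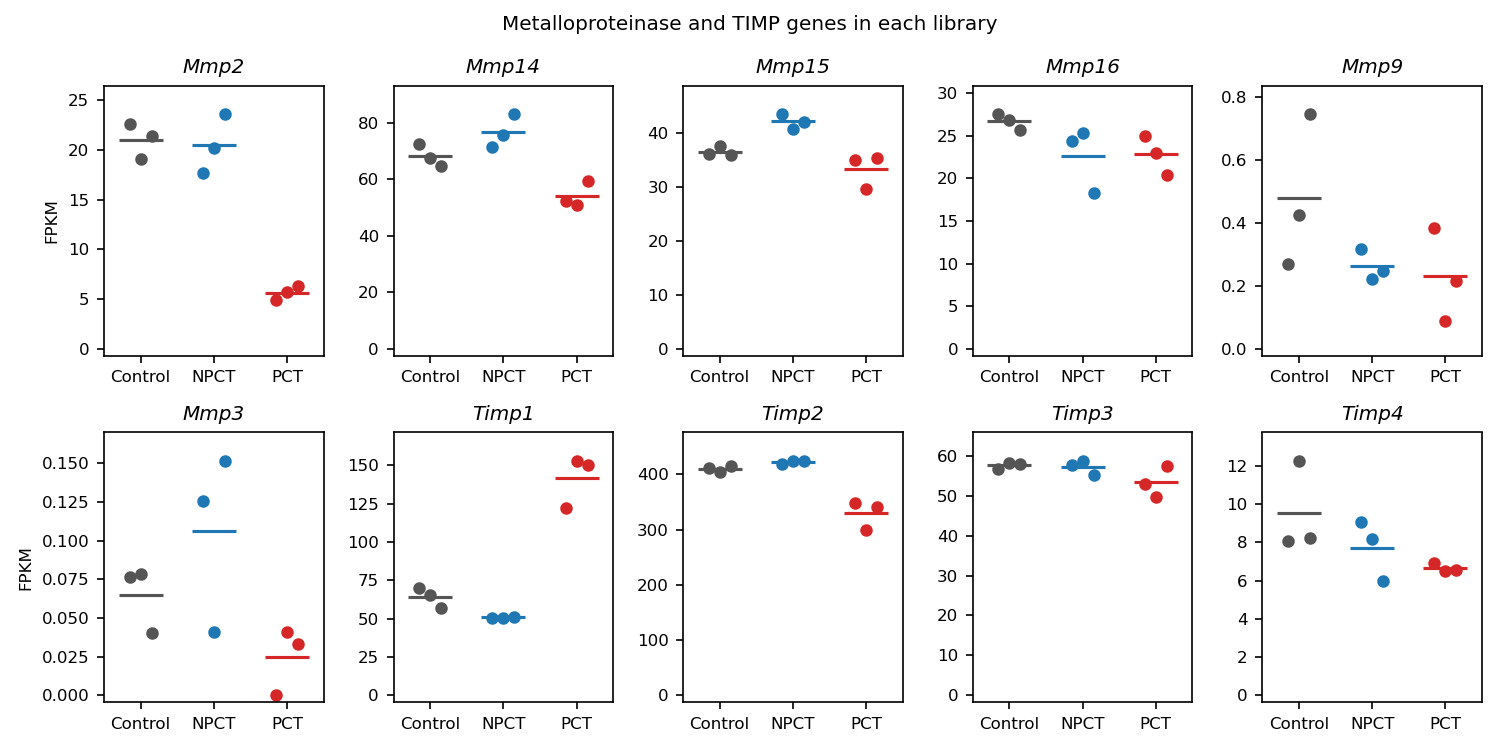
FPKM of each of the 10 genes (vertical axes, linear and separate for each gene) in the Control, NPCT and PCT libraries, with 1 point a library and a bar at the group mean. Mmp2 lies between 4.89 and 6.29 in PCT libraries against 19.1 to 22.6 in Control, and Timp1 between 122 and 153 against 57.2 to 70.3.

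Mmp2 (ENSRNOG00000016695, chromosome 19, 15542765 to 15570611, minus strand, Rnor_6.0), the gelatinase that also cuts type IV collagen of basement membranes, was at 22.6, 19.1 and 21.4 FPKM in the Control libraries. It was at 17.6, 20.2 and 23.6 FPKM in the NPCT libraries and at 4.89, 5.75 and 6.29 FPKM in the PCT libraries. All 3 PCT libraries lay below all 6 others, and the NPCT libraries lay on both sides of the Control range. In these bulk samples fewer cells of a type and less RNA per cell cannot be told apart. The fragments behind these values numbered 872 to 1063 in Control, 758 to 1119 in NPCT and 223 to 339 in PCT libraries. The PCT mean was 0.269 times the Control mean, a log2 fold change of -1.88 (SE 0.129) on the log2(FPKM + 0.1) scale. NPCT against Control gave -0.04 (SE 0.129), and NPCT against PCT gave 1.84 (SE 0.129). No p or interval is given for Mmp2 because it was chosen on these differences, and the SE is not read as a test.

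Mmp14 (ENSRNOG00000010947, chromosome 15, 33074441 to 33083655, plus strand), the membrane enzyme that activates the Mmp2 proenzyme, was at 72.4, 67.4 and 64.6 FPKM in Control libraries. It was at 71.4, 75.6 and 83.0 FPKM with NPCT and at 52.4, 51.0 and 59.3 FPKM with PCT. The PCT libraries lay below all the others, while the NPCT and Control ranges overlapped. Between NPCT and PCT the difference was 0.50 (SE 0.0816) with an adjusted p of 0.00705 (limma with Benjamini-Hochberg adjustment over all 15958 genes tested), at a fold under the 1.5 that a call also required. PCT against Control gave -0.33 (95% interval -0.52 to -0.15, limma adjusted p = 0.0596), and this p fell to 0.0284 without PCT replicate 3 and rose to 0.21 at most when another library was left out. NPCT against Control gave 0.17 (95% interval -0.02 to 0.35, limma adjusted p = 0.203), and this was 0.11 without NPCT replicate 3.

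Mmp15 (ENSRNOG00000012622, chromosome 19, 10079765 to 10101451, minus strand), a membrane enzyme close to that of Mmp14, was at 36.2, 37.6 and 36.1 FPKM in Control, 43.6, 40.9 and 42.2 FPKM with NPCT and 35.1, 29.7 and 35.5 FPKM with PCT. The NPCT libraries were the highest 3 and the PCT libraries the lowest 3. NPCT exceeded PCT by 0.34 (SE 0.0749, limma adjusted p = 0.0197), again at a fold under 1.5, and the p rose to 0.0709 without PCT replicate 2. NPCT against Control gave 0.21 (95% interval 0.04 to 0.37, limma adjusted p = 0.114) and PCT against Control -0.14 (95% interval -0.31 to 0.03, limma adjusted p = 0.373), which was -0.05 without PCT replicate 2.

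Mmp16 (ENSRNOG00000005708, chromosome 5, 31568419 to 31810484, plus strand), another membrane enzyme, was at 27.5, 26.8 and 25.6 FPKM in Control, 24.4, 25.3 and 18.2 FPKM with NPCT and 25.0, 23.0 and 20.4 FPKM with PCT. Both treated groups lay below the Control libraries and overlapped each other. The differences were -0.25 for NPCT (95% interval -0.53 to 0.04, limma adjusted p = 0.223) and -0.23 for PCT (95% interval -0.51 to 0.06, limma adjusted p = 0.374). They were -0.10 without NPCT replicate 3 and -0.15 without PCT replicate 3. NPCT against PCT gave -0.02 (95% interval -0.30 to 0.27), and its sign turned to 0.13 without NPCT replicate 3. Of the 3 membrane enzymes, Mmp16 had the NPCT and PCT levels that were nearest to each other.

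Mmp9 and Mmp3 fell under the mean of 0.5 FPKM that a test required, so 8 of the 10 genes were tested. Mmp9 (ENSRNOG00000017539, chromosome 3, 161413298 to 161421520, plus strand), the other gelatinase, was at 0.269, 0.426 and 0.746 FPKM in Control, from 13, 20 and 34 fragments. It was at 0.318, 0.221 and 0.247 FPKM with NPCT and at 0.385, 0.0893 and 0.217 FPKM with PCT, from 4 to 18 fragments a library. All 3 ranges overlapped, and the highest value was that of Control replicate 3. Mmp3 (ENSRNOG00000032626, chromosome 8, 5676665 to 5698579, plus strand), the stromelysin, had 0 to 4 fragments in any library, at most 0.152 FPKM. In PCT replicate 1 it had 0 fragments, which allows up to 0.116 FPKM at 3 fragments, counting error only. Neither gene was tested for a difference between groups.

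Timp1 (ENSRNOG00000010208, chromosome X, 1364786 to 1369384, minus strand), the secreted inhibitor that astrocytes and other cells release in injury and inflammation, was at 70.3, 65.2 and 57.2 FPKM in the Control libraries. It was at 50.5, 50.7 and 51.1 FPKM in the NPCT libraries and at 122, 153 and 150 FPKM in the PCT libraries. The order was NPCT below Control below PCT, with no overlap between any of the groups. The NPCT libraries had an SD of 0.282 FPKM, the smallest of the 3 groups. These values rested on 613 to 798 fragments in Control, 523 to 584 in NPCT and 1339 to 1949 in PCT libraries. The PCT mean was 2.21 times the Control mean, a log2 fold change of 1.14 (SE 0.100). NPCT against Control gave -0.33 (SE 0.100) and NPCT against PCT -1.47 (SE 0.100). As for Mmp2, these values chose the gene and carry no p or interval, and the SE is not read as a test.

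Timp2 (ENSRNOG00000003148, chromosome 10, 107338465 to 107386072, minus strand), the inhibitor that also helps activate the Mmp2 proenzyme, was at 411, 405 and 415 FPKM in Control, 419, 425 and 424 FPKM with NPCT and 348, 300 and 341 FPKM with PCT. It had more fragments than any other gene of the family, 7077 to 10888 a library. The PCT libraries were the lowest 3 and the NPCT libraries the highest 3. PCT against Control gave -0.32 (SE 0.0648, limma adjusted p = 0.0309) and NPCT against PCT 0.36 (SE 0.0648, limma adjusted p = 0.0102), both at a fold under 1.5. The first p rose to 0.125 without PCT replicate 2, where the difference was -0.25. The second was at most 0.0378 when a library was left out, and reached 0.0556 over all 19 alternative fits. NPCT against Control gave 0.04 (95% interval -0.10 to 0.19, limma adjusted p = 0.697). The file's coordinates, compared by whole span and not by exon, place part of Cep295nl on the same strand as Timp2. Reads in the shared stretch could belong to either gene.

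Timp3 (ENSRNOG00000004303, chromosome 7, 23544215 to 23594133, minus strand), the inhibitor that stays bound to the matrix, was at 56.6, 58.2 and 58.0 FPKM in Control, 57.8, 58.7 and 55.2 FPKM with NPCT and 52.9, 49.6 and 57.4 FPKM with PCT. All groups overlapped. The differences were -0.01 for NPCT (95% interval -0.15 to 0.13), -0.12 for PCT (95% interval -0.26 to 0.03, limma adjusted p = 0.372) and 0.10 between them (95% interval -0.04 to 0.25, limma adjusted p = 0.28). Without PCT replicate 2, the difference was -0.06 for PCT and 0.05 between the peptides.

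Timp4 (ENSRNOG00000007955, chromosome 4, 147156948 to 147163467, minus strand), the least abundant inhibitor here, was at 8.09, 12.3 and 8.20 FPKM in Control, 9.04, 8.15 and 5.98 FPKM with NPCT and 6.93, 6.49 and 6.53 FPKM with PCT. The PCT libraries lay below the Control libraries, and NPCT overlapped both. PCT against Control gave -0.48 (95% interval -0.91 to -0.06, limma adjusted p = 0.203), and this was -0.29 without Control replicate 2, the library at 12.3 FPKM. NPCT against Control gave -0.29 (95% interval -0.72 to 0.14, limma adjusted p = 0.33), and was -0.10 without Control replicate 2. NPCT against PCT gave 0.19 (95% interval -0.24 to 0.62, limma adjusted p = 0.515), and this ranged from 0.07 without NPCT replicate 1 to 0.36 without NPCT replicate 3.

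Calls required a fold above 1.5 with the adjusted p not above 0.05. Mmp2 and Timp1, chosen on these values, passed in PCT against Control and in NPCT against PCT, where 2.31% and 5.76% of all genes were called, and nothing is read from that. Of the 6 tested relatives, 0 were called with PCT against Control, with NPCT against Control (0.219% of all genes) or between the peptides, by limma or by limma-voom. At an unadjusted p under 0.05 (limma) there were 3 with PCT against Control, beside 18.9% of all genes. With NPCT there was 1, Mmp15, beside 29.3%, and between the peptides there were 3 beside 33.1%. PCT and Control libraries did not overlap for 5 of the 6 relatives (Mmp14, Mmp15, Mmp16, Timp2 and Timp4), beside 24.9% of all genes. All 5 were lower with PCT, beside 11.9% of all genes. NPCT and Control did not overlap for 3 of the 6 (Mmp15 and Timp2 higher, Mmp16 lower), beside 40.3%. NPCT and PCT did not overlap for 3 (Mmp14, Mmp15 and Timp2, all higher with NPCT), beside 33.4%. Both peptides were set against the same Control libraries, so their differences from Control are not independent.

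**Figure D2:**
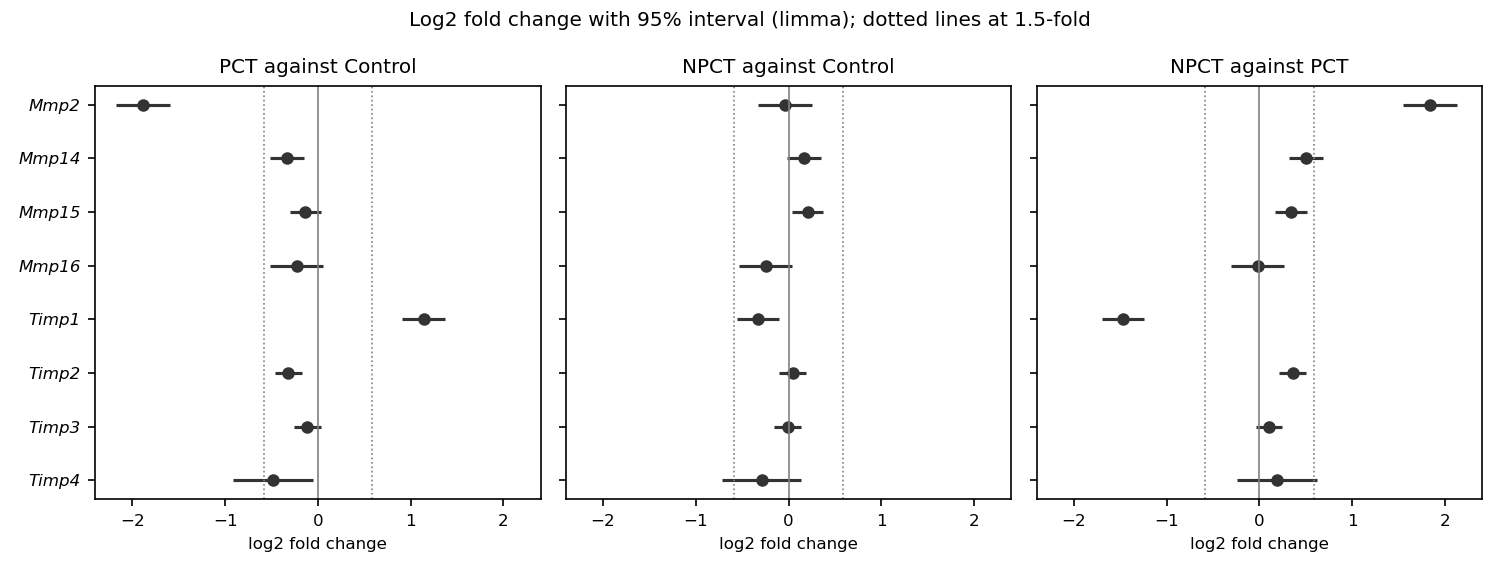
Log2 fold change of the 8 tested genes in each comparison (horizontal axis, log2(FPKM + 0.1) scale), with points for the estimates, bars for 95% intervals and dotted lines at a fold of 1.5. In PCT against Control Mmp2 is at -1.88 and Timp1 at 1.14, and the relatives lie between -0.48 and -0.12. Mmp2 and Timp1 were chosen on these differences, so their distance from the relatives and their intervals are not read as a result.

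Timp1, Timp3 and Timp4 each lie within a synapsin gene, on the opposite strand, in the coordinates of the file. Synapsins coat synaptic vesicles in nerve terminals. Timp1 lies 43.47 to 48.07 kb into the 57.88 kb of Syn1, Timp4 119.8 to 126.3 kb into the 157.9 kb of Syn2 and Timp3 140.3 to 190.2 kb into the 404.7 kb of Syn3. Whole spans were compared, and whether exons overlap was not checked. Whether counting used strand is not given in the sources used here. Where exons do overlap, reads of host and nested gene could be mixed, and the levels of these 3 inhibitors are uncertain to that extent. Syn1 was at 131 ± 8.30 FPKM in Control, 113 ± 3.96 with NPCT and 110 ± 12.6 with PCT (SD, n = 3 each). None of the synapsins was called. In PCT against Control the log2 fold change was -0.25 for Syn1 (limma adjusted p = 0.143) and 1.14 for Timp1. It was -0.30 for Syn2 (limma adjusted p = 0.103) and -0.48 for Timp4 (limma adjusted p = 0.203). It was 0.15 for Syn3 (95% interval -0.13 to 0.42, limma adjusted p = 0.579) and -0.12 for Timp3 (95% interval -0.26 to 0.03, limma adjusted p = 0.372). In NPCT against Control the estimates were -0.21 for Syn1 (limma adjusted p = 0.139), -0.23 for Syn2 (limma adjusted p = 0.128) and -0.41 for Syn3 (limma adjusted p = 0.0732). In NPCT against PCT they were 0.04 for Syn1, 0.07 for Syn2 and -0.56 for Syn3 (limma adjusted p = 0.0189, at a fold under 1.5 and with no overlap of libraries), where Timp3 was at 0.10.

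**Figure D3:**
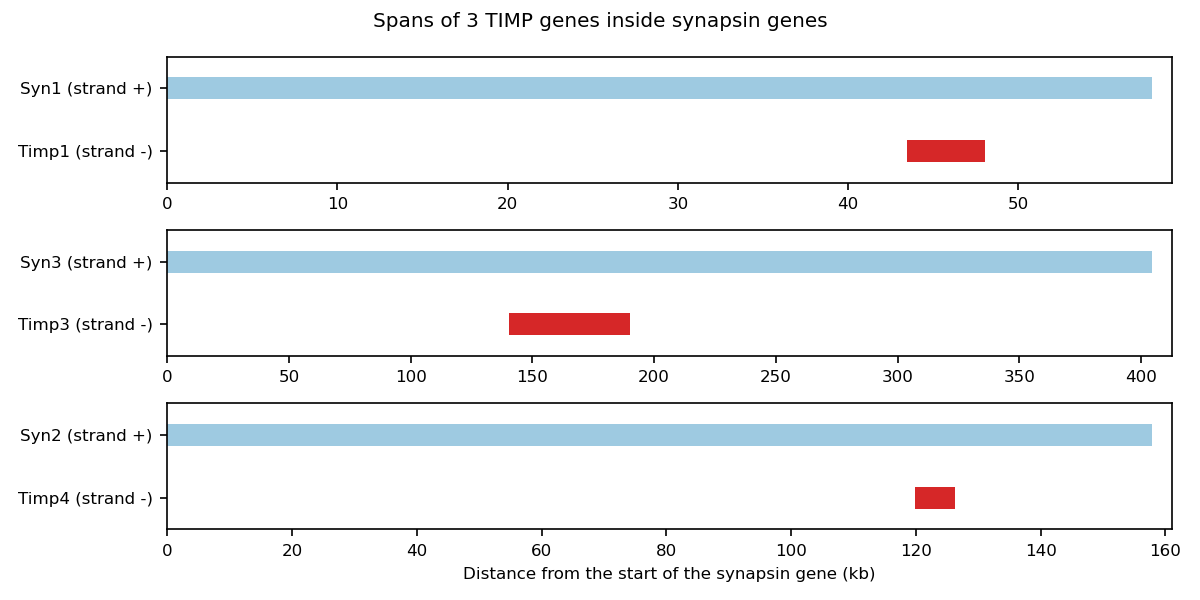
Spans of Timp1, Timp3 and Timp4 (red) and of the synapsin gene that holds each (blue), with strand, against the distance from the start of the synapsin gene in kb (a separate scale for each pair). Each inhibitor gene lies wholly within its synapsin gene, Timp1 for instance from 43.47 to 48.07 kb of Syn1.

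The promoters of Timp1 and Timp2, the inhibitors with the highest levels under PCT, are shown because those levels lay on opposite sides of the Control range. Both run from 250 bases before the start of the gene to 50 bases from it on, 5′ to 3′ on the strand of the gene, from RefSeq on GRCr8, a later build than that of the expression table. Capitals mark every match to GGGCGG (a GC box, bound by Sp factors) or TGAGTNA (an AP-1 site with a free base), on either strand.
Timp1, chrX:3771073-3771372: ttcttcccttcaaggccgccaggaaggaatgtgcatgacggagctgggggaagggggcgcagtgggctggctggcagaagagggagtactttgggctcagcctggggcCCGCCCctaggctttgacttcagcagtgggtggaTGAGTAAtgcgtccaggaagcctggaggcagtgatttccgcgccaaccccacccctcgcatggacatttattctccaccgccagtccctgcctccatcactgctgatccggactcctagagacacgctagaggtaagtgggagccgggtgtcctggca
Timp2, chr10:104089165-104089464: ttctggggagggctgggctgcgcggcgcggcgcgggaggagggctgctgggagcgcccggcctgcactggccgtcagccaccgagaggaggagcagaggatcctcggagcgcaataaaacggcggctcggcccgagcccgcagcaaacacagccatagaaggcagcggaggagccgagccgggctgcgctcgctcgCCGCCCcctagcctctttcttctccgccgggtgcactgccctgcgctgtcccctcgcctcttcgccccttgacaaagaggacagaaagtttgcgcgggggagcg
The Timp1 window held TGAGTAA at -108 to -102 and a GC box, read as CCGCCC, at -142 to -137, counted from the start of the gene. The Timp2 window held CCGCCC at -54 to -49 and no TGAGTNA. Of 33469 promoters of 300 bases, 13.7% held TGAGTNA and 33.1% held GGGCGG.

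The table of promoters matched 6 of the 10 genes, Mmp3, Mmp15 and the 4 TIMPs, while Mmp2, Mmp9, Mmp14 and Mmp16 had none. Timp3 held 3 GC boxes, at -158 to -153, -130 to -125 and -75 to -70. Timp4 held no match to any of the 5 motifs searched (GGGCGG as the GC box, TGAGTNA and the stricter TGANTCA for AP-1 factors, TTCNNNGAA as the palindrome of STAT factors and TATAAA as the TATA box, both strands). Mmp15 held CCGCCC at -137 to -132. Mmp3 held TGAGTCA at -71 to -65, a match to both AP-1 motifs. It also held TGAGTAA at -144 to -138 and a TATA box at -32 to -27. TGANTCA was in 7.33%, TTCNNNGAA in 8.87% and TATAAA in 14.2% of all promoters. The share of G and C was 61.3% for Timp1, 70.3% for Timp2, 68.7% for Timp3 and 50.3% for Timp4. These are matches of letters, and no binding was measured.

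Summed over the 4 inhibitors, the level was 538.7 to 545.8 FPKM in Control, 535.9 to 542.6 FPKM with NPCT and 508.8 to 555.5 FPKM with PCT. The TIMP sum with PCT therefore covered the range of the other groups, while its makeup differed. Timp1 made up 10.6% to 12.9% of it in Control, 9.35% to 9.52% with NPCT and 23.0% to 30.1% with PCT, the Timp1 mean going from 64.2 to 142 FPKM and the Timp2 mean from 410.4 to 329.6 FPKM. Over the 6 metalloproteinases the sum was 148 to 159 FPKM in Control, 157 to 167 FPKM with NPCT and 110 to 122 FPKM with PCT. Mmp2 made up 12.6% to 14.4% of that sum in Control, 11.2% to 14.1% with NPCT and 4.16% to 5.25% with PCT. The inhibitor sum per enzyme sum was 3.43 to 3.63 in Control, 3.21 to 3.40 with NPCT and 4.50 to 4.65 with PCT. Timp1 per Mmp2 was 2.68 to 3.42 in Control, 2.17 to 2.86 with NPCT and 23.9 to 26.6 with PCT. These are ratios of transcripts built from the chosen genes, given with no test, and enzyme activity was not measured.

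**Figure D4:**
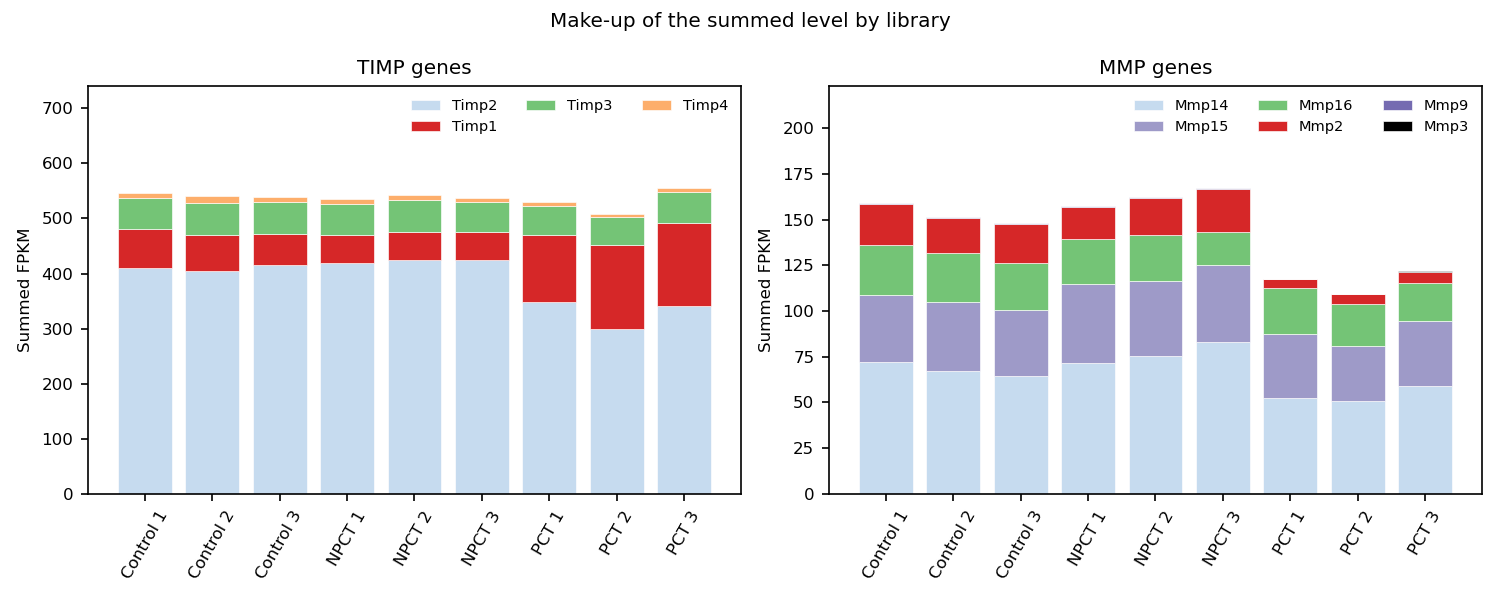
Stacked FPKM of the metalloproteinases and of the TIMPs in each library, on linear axes from 0. The TIMP columns stay between 508.8 and 555.5 FPKM in all libraries while the Timp1 share reaches 23.0% to 30.1% with PCT; Mmp9 and Mmp3 are too low to be seen.

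Other genes of the system were counted in 3 lists of metalloproteinases, of activators, inhibitors and partners, and of matrix substrates, 105 genes of which 102 were in the table and 75 were tested. The lists were made with earlier results of these data known. Here and below, the counts and adjusted p of their genes are therefore a description, and no excess over all genes is read. With PCT against Control, 5 of the 75 were called, 1 higher and 4 lower, 6.67% beside 2.31% of all genes. Their median log2 fold change was -0.10 beside 0.005 for all genes. Among metalloproteinases 1 of 25 was called, Adamts9, which cuts proteoglycans. It was at 2.79 to 2.94 FPKM in Control and 1.66 to 1.90 FPKM with PCT, a change of -0.64 (limma adjusted p = 0.0257) that did not pass under 6 of the 9 fits without a library, with adjusted p up to 0.113. Mmp24, another membrane enzyme and the metalloproteinase gene with the highest mean outside the 10 at 69.3 FPKM, was at 70.2 ± 5.37, 68.0 ± 0.896 and 69.7 ± 4.49 FPKM in Control, NPCT and PCT libraries. Mmp1, Mmp8, Mmp11 and Mmp27 are listed at 0 in every library.

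Among activators, inhibitors and partners, 3 of 22 were called with PCT, beside 2.31% of all genes. Lcn2, whose product lipocalin binds the gelatinase of Mmp9, was at 1025 to 1321 FPKM in Control, 752.8 to 1032 FPKM with NPCT and 27.6 to 74.9 FPKM with PCT, a change of -4.74 (SE 0.304, limma adjusted p = 0.000145). Serpine2, an inhibitor of thrombin and plasminogen activators, fell by 0.97 on the log2 scale (limma adjusted p = 0.000384). Cd44, the hyaluronan receptor that holds metalloproteinases at the cell surface, rose from 22.6 ± 2.30 to 42.6 ± 5.55 FPKM (0.91, limma adjusted p = 0.00647). Among matrix substrates 1 of 28 was called, Col4a1, a basement membrane collagen, which fell from 26.9 ± 1.17 to 14.1 ± 1.92 FPKM (-0.94, limma adjusted p = 0.0012).

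With NPCT against Control, 0 of the 75 were called, beside 0.219% of all genes. The median was 0.006 for the lists and 0.006 for all genes, and 18 (limma) had an unadjusted p under 0.05 where 29.3% of all genes did. Limma-voom called 1 of the 75 in that comparison, beside 391 of all genes. It was Fn1, the gene of fibronectin, at -0.63 (limma-voom adjusted p = 0.0287), which was named after its values were seen. Between NPCT and PCT, 8 of the 75 were called, 6 higher with NPCT and 2 lower, 10.7% beside 5.76% of all genes, with a median of 0.10 beside -0.008. Limma-voom called 11 there, adding Spp1, Thbs2 and Lama1, and 6 in PCT against Control, adding Cldn1. The shares of all genes given for these comparisons are those of limma, so no excess is read from the limma-voom counts either. Higher with NPCT were Lcn2 (4.34), Col4a1 (0.95), Adamts9 (0.85), Serpine2 (0.83), Lamb2 (0.71), a laminin chain of basement membranes, and Hapln4 (0.68), a link protein of perineuronal nets. Lower with NPCT were Cldn1 (-1.64), a tight junction protein, and Cd44 (-1.20). The adjusted p of Hapln4 was 0.0492 (limma), and it was above 0.05 under each fit that left out a library, from 0.0572 to 0.138.

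**Figure D5:**
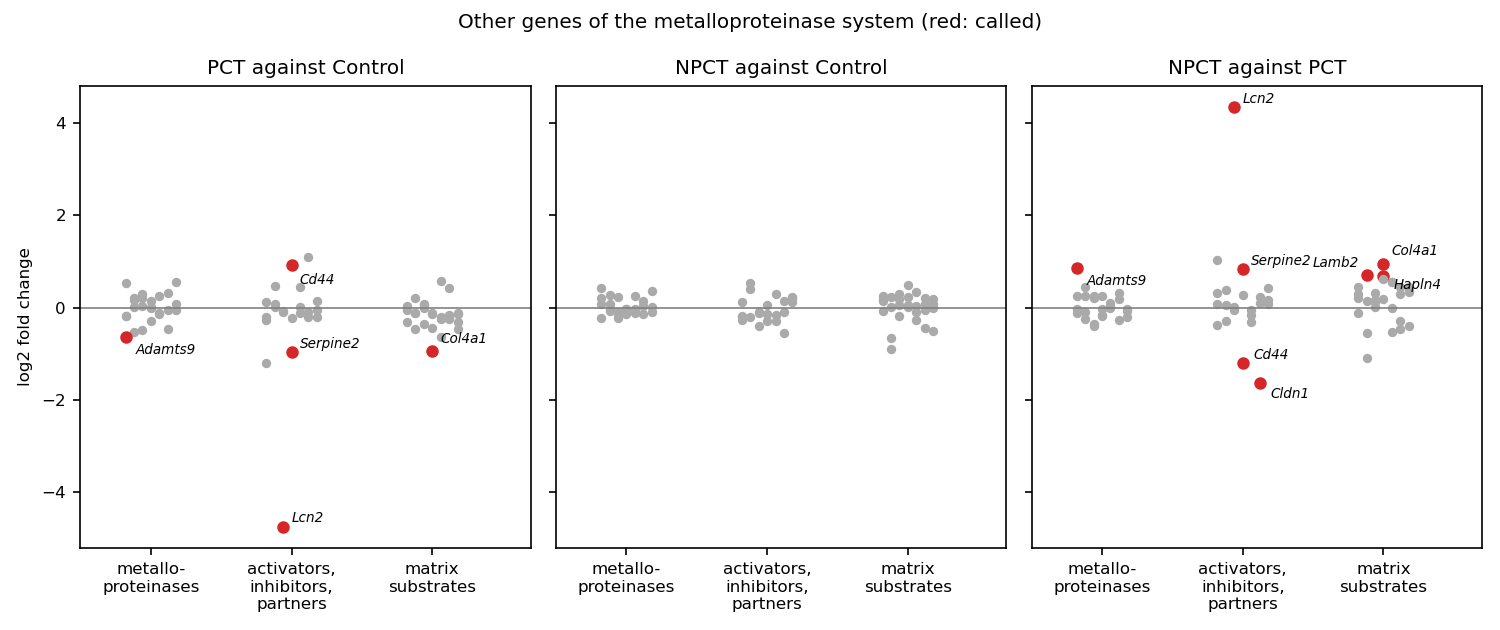
Log2 fold change (vertical axis, log2(FPKM + 0.1) scale) of the 75 tested genes of the 3 lists in each comparison, with 1 point a gene and called genes in red and named. Lcn2 lies lowest with PCT at -4.74, and no gene is called in NPCT against Control.

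The genes whose profile over the 9 libraries was most like that of Timp1 were Cd44 (root-mean-square difference of 0.167 on the log2 scale), Irf1 (0.181), Trim47 (0.213), Gbp5 (0.22) and S100a10 (0.259), of 9326 genes with a symbol and a mean of at least 5 FPKM. Irf1 encodes an interferon regulatory factor, Gbp5 a guanylate-binding protein induced by interferon, and S100a10 a surface partner of plasminogen activation. Irf1 was at 4.49 ± 0.695 FPKM in Control, 4.37 ± 0.498 with NPCT and 9.68 ± 0.837 with PCT, and S100a10 at 99.7 ± 6.40, 115 ± 8.82 and 232 ± 34.6 FPKM. Of the 5, Cd44 alone had a mean difference with NPCT (-0.29) near that of Timp1 (-0.33), the others lying between -0.03 and 0.21. The genes most like Mmp2 were C1r (0.121), Acss1 (0.158), Smpdl3a (0.192), Igfbp7 (0.211) and Cyp2d4 (0.234). C1r, a protease of the complement cascade, was at 39.3 ± 3.47 FPKM in Control, 39.4 ± 5.26 with NPCT and between 7.66 and 10.03 in the PCT libraries. Igfbp7, a secreted binding protein of growth factors, was at 137 ± 7.36, 157 ± 20.0 and 32.8 ± 4.48 FPKM. Likeness here is a description over 9 libraries and was the basis on which these genes were named.

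The labelled cell type was checked against marker genes. The marker lists were likewise made with earlier results of these data known, and no excess is read from their counts. The 12 neuronal markers had a summed level of 2247 to 2340 FPKM in Control, 2156 to 2217 with NPCT and 2185 to 2404 with PCT. Astrocyte markers were as abundant, with sums of 2461 to 2640, 2412 to 2681 and 2122 to 2193 FPKM, and 5 of 9 tested were called lower with PCT (Aqp4, Aldh1l1, Slc1a2, S100b and Aldoc), where 1.72% of all genes were called lower. Gfap, the most abundant marker of that list, lay the other way, at 899 to 931 FPKM with PCT and 734 to 828 FPKM in Control, and was not called (0.25, limma adjusted p = 0.147). Microglial markers summed to 67.4 to 77.9 FPKM in Control, 72.7 to 222 with NPCT and 48.7 to 51.8 with PCT, and 4 of 11 were called lower with PCT (Cx3cr1, Csf1r, Aif1 and Tyrobp), beside the same 1.72%. Markers of the oligodendrocyte lineage summed to 474 to 490 FPKM in Control, 516 to 550 with NPCT and 430 to 447 with PCT. Between NPCT and PCT, 7 of 11 microglial markers and 3 of 9 astrocyte markers were called higher with NPCT, where 4.38% of all genes were, with medians of 2.13 and 0.42. The high microglial sum was that of NPCT replicate 3, the other NPCT libraries lying at 72.7 and 75.9 FPKM, and without that library NPCT against Control was -0.15 for Mmp2 and -0.34 for Timp1. C1qc, for instance, was at 7.68, 7.35 and 43.1 FPKM in the NPCT libraries, in order of replicate. The microglial count and median between NPCT and PCT include NPCT replicate 3 and were not recomputed without it. Fibroblast markers, from cells that express Mmp2 and Timp1 widely, summed to 48.0 to 54.2, 52.5 to 65.7 and 28.2 to 43.6 FPKM. With PCT, Col3a1 was called higher and Mgp lower of 7 tested, where 0.589% of all genes were called higher and 1.72% lower. The endothelial marker Cldn5 is listed at 0 in every library, and the other endothelial markers summed to 1.06 to 1.83 FPKM. Pericyte and smooth muscle markers summed to 4.33 to 4.61 FPKM in Control, 3.56 to 4.46 with NPCT and 3.37 to 3.62 with PCT. The sums of the astrocyte, microglial, oligodendrocyte, fibroblast and pericyte lists were each lower in all PCT libraries than in all Control libraries, as Mmp2 was, and their part in the result was not tested. The median log2 fold change over the tested markers was -0.60 and -1.38 for the astrocyte and microglial lists and -0.32 for the 1 tested pericyte marker, but 0.17 for the oligodendrocyte and 0.28 for the fibroblast list, opposite in sign to the sums. Olig1 had a mean of 272 FPKM in Control and 191 with PCT, and the other oligodendrocyte means except that of Cspg4 were higher with PCT. Mgp had means of 26.0 and 11.5 FPKM. Fbln1 and Ogn were also lower with PCT, and the other fibroblast means were higher. Each of these sums was thus weighted by its most abundant marker.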

How the data were processed

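Poly-A RNA of 9 libraries was sequenced. Per the labels and the methods, the authors aligned reads with HISAT2 2.0.5 to Rnor_6.0, counted them per gene with featureCounts 1.5.0-p3 and deposited FPKM for 34092 genes. The strand setting of counting is not given in the sources used here. FPKM times gene length gave whole multiples of 1 step in every library (100% of values, tolerance 1e-04), so fragments per gene could be recovered. The precision quoted covers the spread between libraries.

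FPKM were scaled by median ratios, with a factor of 1 in every library, so the deposited values were already on that scale. Genes with a mean of at least 0.5 FPKM (15958) were tested as log2(FPKM + 0.1) with limma 3.58.1 (R 4.3.3). The model fitted a group mean for Control, NPCT and PCT over all 9 libraries, with a mean-variance trend and Benjamini-Hochberg adjustment over all genes. Calls required a fold above 1.5 and an adjusted p not above 0.05. Fold changes on this scale understate changes of low genes. The deposited FPKM were tested on the log scale, and limma-voom on the recovered fragments was run as an alternative. The procedure was checked on artificial data made from the real means.

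The 10 genes, the lists and the markers were chosen with earlier results of these data known. All 10 were described, and of the lists at most 8 called genes a comparison, with libraries of the groups apart, by size of change. For Timp1 and Mmp2, the 5 genes of closest centred log2 profile were named, leaving out clone-based symbols. The alternatives were other pseudocounts (0.01 and 1), filters and scalings, 2 groups alone, a replicate block, removal of the gene length trend, limma-voom and leaving out each library.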

Additional observations from a re-analysis of the deposited data

How the results depend on the processing

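Mmp2 and Timp1 were chosen on their PCT differences, so the range of these is a description and not support. PCT against Control ranged from -1.96 to -1.73 for Mmp2 and from 1.06 to 1.24 for Timp1 over 19 alternatives, several of which, such as the FPKM as deposited, leave the group means as they were. The count of all genes called in NPCT against Control was the least stable. It was 35, and became 208 with a mean FPKM of at least 1, 9 with no filter, 193 after quantile normalization, 579 with only the groups compared, 319 with a replicate block, 3 after removal of the gene length trend, 391 with limma-voom and 0 to 562 when a library was left out (0 without Control replicate 3, NPCT replicate 2 or NPCT replicate 3, 562 without PCT replicate 3). Genes of the 3 lists called in that comparison went from 0 to 1, Fn1, under that higher filter, quantile normalization, only the groups compared, the replicate block and limma-voom, and to 0 to 1 without a library (1 without PCT replicate 1 or PCT replicate 3). In NPCT against PCT the count of 919 became 454 with only the groups compared and 525 to 1623 without a library (525 without PCT replicate 2, 528 without PCT replicate 1, 570 without NPCT replicate 1, 1623 without PCT replicate 3). In PCT against Control the count of 368 became 172 to 398 (172, 206 and 187 without Control replicates 1, 2 and 3). Of the lists, 4 to 7 and 7 to 10 genes were then called in PCT against Control and NPCT against PCT. With limma-voom 6 and 11 were called, with no count of all genes given beside them. Replicate numbers did not pair the libraries: correlations of deviations between libraries of the same number were -0.072 to 0.034. The block changed the call of Adamts9 with PCT (adjusted p 0.0585, limma) and of Hapln4 between the peptides (0.0763), and of no gene of the family. Small differences turned sign. In NPCT against Control these were Timp2 (-0.079 after quantile normalization), Timp3 (0.028 with limma-voom), Irf1 (0.00 with limma-voom) and Cyp2d4 (0.018 with limma-voom). C1r was at 0 there and had no sign to turn, with -0.029, -0.002 and 0.042 after quantile normalization, length removal and limma-voom. In NPCT against PCT it was Mmp16 (0.001 and 0.01 after quantile normalization and limma-voom). The median over all genes in NPCT against Control moved from 0.006 to 0.046 with limma-voom, -0.019 after quantile normalization and -0.007 after length removal. In NPCT against PCT that median moved from -0.008 to 0.022 with limma-voom and -0.035 after quantile normalization. Without a library, NPCT against Control ranged from -0.150 to 0.059 for Mmp2, -0.029 to 0.016 for Timp3, -0.024 to 0.032 for Col4a1, -0.163 to 0.054 for Irf1, -0.026 to 0.101 for Gbp5, -0.101 to 0.086 for C1r and -0.095 to 0.019 for Cyp2d4, and NPCT against PCT from -0.107 to 0.129 for Mmp16. The untested difference of mean FPKM of Mmp9 between NPCT and PCT ranged from -0.0392 without PCT replicate 2 to 0.109 without PCT replicate 1. The cause was not tested. Mmp9 and Mmp3 had at most 34 and 4 fragments in a library and were below the filter.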
